A study of Mus musculus with 6 samples.

Results

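The monocyte genes described here are 10 genes that mark monocytes and their close relatives: Ccr2, Cx3cr1, Itgam, Fcgr1, Cd14, Tyrobp, Ms4a6c, Cd68, Lyz2 and F13a1. They were taken as all probe sets whose gene symbol on the array platform, updated to the current symbol, was one of these names, which gave 16 of the 45037 probe sets that are not controls, for 10 of the 18193 genes named there. RNA came from lineage-negative bone marrow, that is, marrow from which cells with markers of mature blood lineages had been removed by flow cytometry, which enriches for haematopoietic stem and progenitor cells. It was measured on 6 Affymetrix mouse expression arrays. The 3 arrays of C57B/L6, the widely used black inbred strain, were compared with 3 arrays of B.D(Chr5). The labels describe that strain only by this name, which refers to chromosome 5. All mice were females of 6 to 16 weeks and untreated as far as the labels say. The 3 samples of a strain were labelled as biological replicates, with no statement on whether 1 mouse or a pool was used. The p-values of the strain comparison rest on the spread among these samples, moderated by the spread of all tested probe sets. Those of the correlations rest on reordering the 6 arrays. None draws on other samples. None of the 10 genes lies on chromosome 5: they are on chromosomes 3 (Fcgr1), 7 (Itgam and Tyrobp), 9 (Ccr2 and Cx3cr1), 10 (Lyz2), 11 (Cd68), 13 (F13a1), 18 (Cd14) and 19 (Ms4a6c).

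Monocytes arise in the marrow from granulocyte-monocyte progenitors under the transcription factors PU.1, encoded by Spi1, and IRF8, and under the growth factor receptor CSF1R. Classical monocytes leave the marrow through the chemokine receptor CCR2, while those that patrol vessel walls depend more on CX3CR1. Both kinds carry phagocytic and bacterial sensors, among them the integrin subunit CD11b, encoded by Itgam, which is also a common target of lineage depletion. The labels do not name the antibodies used here. In whole-population RNA such as this, fewer monocytic cells and less monocytic RNA per cell cannot be told apart.

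The arrays were scaled alike, with a median signal between 65.0 and 79.5. Background was the level that 95% of 27 probe sets for bacterial transcripts, which serve as controls, stayed below, and it lay between 21.8 and 38.0. The signal of residual 18S ribosomal RNA ranged from 1726 to 20010.3 and was highest, within each strain, in C57B/L6 replicate 1 and B.D(Chr5) replicate 2. Markers of stem and multipotent progenitors were in place: all 8 such genes with a probe set of their own, Kit, Procr, Slamf1, Meis1, Hlf, Mecom, Cd34 and Flt3, passed the filter on dim probe sets.

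The stretch of DNA just before the start of a monocyte gene often holds a purine-rich PU box, which PU.1 binds. The RefSeq promoter table (GRCm38.p6) was used for 8 of the 10 genes. Tyrobp had no promoter there, and Cd14 was left out of the search, so the counts of matches do not cover them. The letters GAGGAA, or their reverse complement TTCCTC, occurred in the 250 bases before the start of 4 of these 8 genes, Fcgr1, Itgam, Cd68 and F13a1, and in 23.3% of all promoters in the table. Counted by promoter, as that share is, 4 of the 9 promoters used for these genes held a match. A match describes the letters and does not show a bound site. The last 100 bases before the start are shown for the 3 genes with a match there, because Fcgr1 and F13a1 are the members whose levels did not overlap between the strains and Itgam encodes CD11b. Capitals mark the match, and the lower-case Lyz2 and Lyz1 lines show the neighbouring lysozyme genes side by side.
Fcgr1, chr3:96293970-96294069, minus strand: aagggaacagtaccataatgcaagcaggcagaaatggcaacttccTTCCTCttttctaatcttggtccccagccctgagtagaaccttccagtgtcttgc
Itgam, chr7:128062540-128062639, plus strand: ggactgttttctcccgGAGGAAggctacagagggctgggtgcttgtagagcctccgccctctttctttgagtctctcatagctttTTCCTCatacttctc
F13a1, chr13:37050245-37050344, minus strand: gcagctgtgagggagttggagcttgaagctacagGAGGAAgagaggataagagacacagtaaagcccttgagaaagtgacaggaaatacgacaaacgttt
Lyz2, chr10:117282273-117282372, minus strand: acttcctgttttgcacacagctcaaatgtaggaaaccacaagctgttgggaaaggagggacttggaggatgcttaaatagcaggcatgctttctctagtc
Lyz1, chr10:117292869-117292968, minus strand: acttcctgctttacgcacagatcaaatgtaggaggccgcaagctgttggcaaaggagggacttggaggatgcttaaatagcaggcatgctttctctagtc
Lyz2 and Lyz1 had the same letter at 92 of these 100 positions, and at 152 of all 250 when compared position by position without gaps. F13a1 has another start in the table, with no match before it.

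All 10 genes were measured above background. Their brightest probe sets lay above the bacterial controls of their array on 6 of 6 arrays, and 15 of the 16 probe sets were bright enough to be tested. The question of the study was how the strains differ. For these genes the data gave no call: 0 of 10 passed limma at an adjusted p of 0.05, where 0.158% of all 10739 tested genes did, each gene being read from its brightest probe set. At an unadjusted p under 0.05 there were 2 of 10, F13a1 and Lyz2, both higher in B.D(Chr5), against 5.19% of tested genes in either direction and 2.36% in that direction. The log2 difference, B.D(Chr5) minus C57B/L6, was positive for 8 of the 10 genes and for 46.6% of tested genes. Its median was 0.17 over the 10 genes and -0.0085 over all tested genes. Their levels also varied together between arrays of the same strain.

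**Figure D1:**
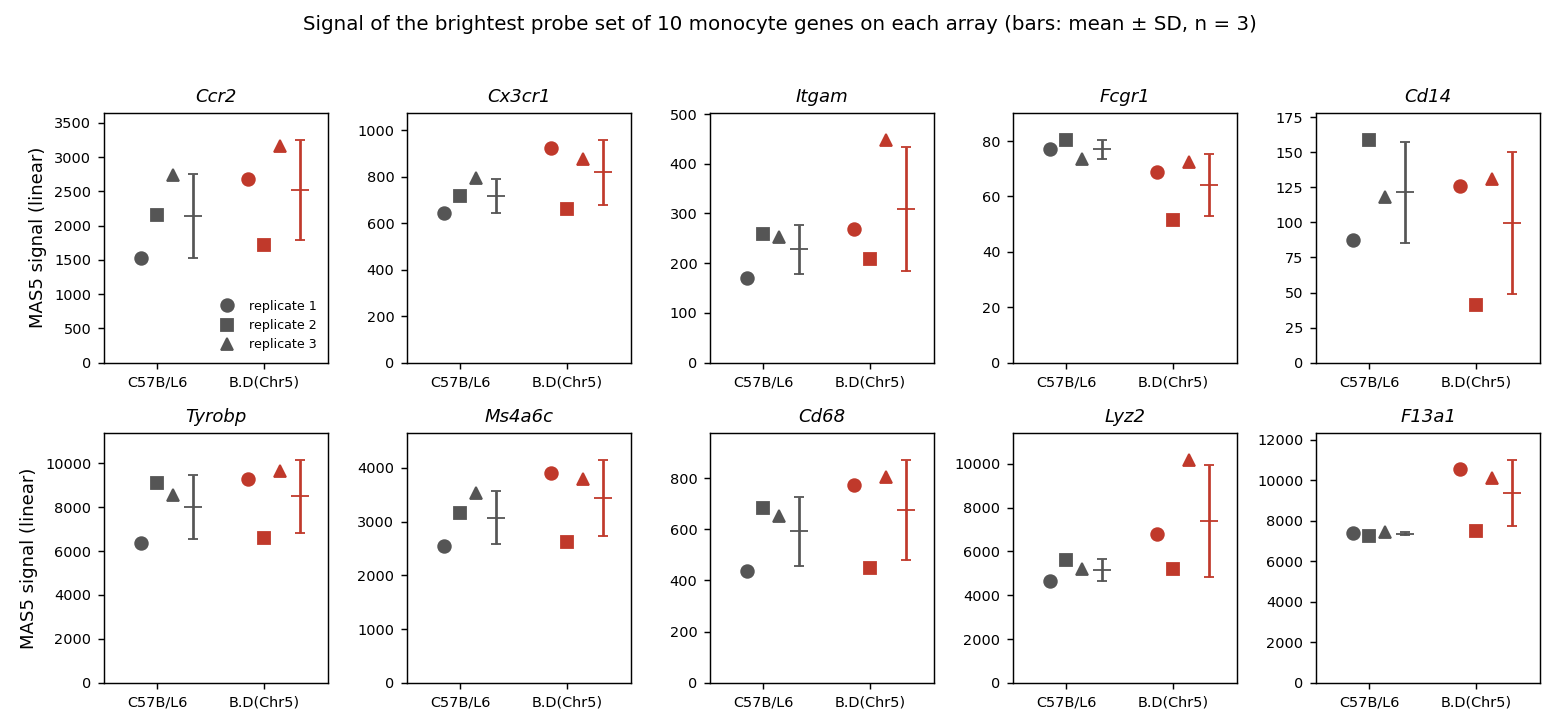
MAS5 signal on a linear axis from 0 (vertical) for the brightest probe set of each of the 10 genes, by strain (horizontal), with a marker shape for each replicate number and the mean ± SD of 3 arrays beside the points. In 8 of the 10 panels C57B/L6 replicate 1 and B.D(Chr5) replicate 2 are the lowest arrays of their strain.

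Among the chemokine receptors, Ccr2, which binds CCL2 and draws classical monocytes into blood, read 1522, 2158 and 2746 on the 3 C57B/L6 arrays and 2676, 1724 and 3170.1 on the 3 B.D(Chr5) arrays. The strains overlapped, with the lowest value of each strain in C57B/L6 replicate 1 and B.D(Chr5) replicate 2. This gave a log2 difference of 0.23 with an SE of 0.24 and a 95% interval from -0.31 to 0.78. Ccr2 had 3 further probe sets, with log2 differences of 0.32, -0.062 and -0.095. The dimmer of the brightest pair followed the brightest over the 6 arrays (Pearson's r = 0.88, exact permutation p = 0.0333; Spearman's rho = 0.71, exact permutation p = 0.136), whereas the second dimmest did not (r = -0.010, exact permutation p = 0.989; rho = 0.086, exact permutation p = 0.919). Adjusted over 11 such relations between probe sets, the first p of r became 0.0917, and r was 0.42 without C57B/L6 replicate 1 and B.D(Chr5) replicate 2, so that likeness rests on those arrays. Cx3cr1, the receptor for fractalkine on patrolling monocytes and on monocyte and dendritic cell progenitors, read 644, 716 and 793 in C57B/L6 and 925, 660.0 and 875 in B.D(Chr5). Its strains overlapped because of B.D(Chr5) replicate 2, the lowest array of that strain. The strains differed on the log2 scale by 0.18 with an SE of 0.14 and an interval from -0.15 to 0.50, and its dimmer probe set gave 0.25.

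Of the surface receptors, Itgam encodes CD11b, which pairs with the beta chain encoded by Itgb2 to form the complement receptor and adhesion molecule Mac-1. It read 171, 260 and 253 in C57B/L6 and 268, 209 and 449 in B.D(Chr5). B.D(Chr5) replicate 3 stood far above the other arrays and B.D(Chr5) replicate 2 lay within the range of C57B/L6. On the log2 scale B.D(Chr5) minus C57B/L6 came to 0.37 with an SE of 0.27 and an interval from -0.23 to 0.97. Without B.D(Chr5) replicate 3 it was 0.074. Its partner Itgb2, which other white cells share, averaged 2534 ± 415 on the C57B/L6 arrays and 2524 ± 269 on those of B.D(Chr5) (SD over n = 3 arrays), a log2 difference of 0.0020 with an interval from -0.29 to 0.29.

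Fcgr1 encodes the high-affinity IgG receptor CD64. Its tested probe set read 77.3, 80.4 and 73.5 in C57B/L6 and 68.7, 51.3 and 72.5 in B.D(Chr5). All 3 B.D(Chr5) arrays lay below all 3 C57B/L6 arrays, although the gap between the nearest arrays was a small part of the range. The log2 difference was -0.22 with an SE of 0.23 and an interval from -0.73 to 0.28. The other probe set of Fcgr1, too dim to be tested, went the opposite way, with 39.9, 64.4 and 28.3 in C57B/L6 and 114.6, 30.1 and 94.4 in B.D(Chr5), a log2 difference of 0.58. On that probe set B.D(Chr5) replicate 2 lay below the bacterial controls of its array, and the strains overlapped. The direction for Fcgr1 therefore depends on the probe set.

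Cd14 encodes the co-receptor that passes bacterial lipopolysaccharide to TLR4. It read 87.3, 159 and 118 in C57B/L6 and 126, 41.1 and 131 in B.D(Chr5), where replicate 2 was the lowest of all 6 arrays and near background. This gave a log2 difference of -0.34 with an SE of 0.37 and an interval from -1.18 to 0.49, and it became 0.10 when B.D(Chr5) replicate 2 was left out. The sign for Cd14 thus came from that 1 array. Of its partners, Tlr4 had a log2 difference of 0.33 (interval from -0.12 to 0.78) and the TLR4 co-receptor gene Ly96 -0.0073 (interval from -0.41 to 0.39).

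Tyrobp encodes DAP12, the signalling adaptor of TREM and related receptors. It read 6375, 9108 and 8557 in C57B/L6 and 9262, 6569 and 9623 in B.D(Chr5). The low array of each strain was close to that of the other, and so were the high arrays, so the strains overlapped over most of their range. The strains differed on the log2 scale by 0.079 with an SE of 0.16 and an interval from -0.29 to 0.45. It turned to -0.077 when C57B/L6 replicate 1 was dropped and to -0.022 when B.D(Chr5) replicate 3 was. Ms4a6c, a four-span membrane protein of monocytes, read 2549, 3156 and 3527 in C57B/L6 and 3916, 2623 and 3787 in B.D(Chr5). Here too B.D(Chr5) replicate 2 fell among the C57B/L6 arrays. On the log2 scale B.D(Chr5) minus C57B/L6 came to 0.15 with an SE of 0.16 and an interval from -0.22 to 0.52, and the dimmer probe set gave 0.063. Its relative Ms4a6b had a log2 difference of 0.081 (interval from -0.21 to 0.37).

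Among the lysosomal and secreted products, Cd68 encodes a lysosomal membrane glycoprotein of macrophages and monocytes. It read 437, 685 and 654 in C57B/L6 and 773, 449 and 803 in B.D(Chr5), with the low array of each strain at nearly the same level. The log2 difference was 0.17 with an SE of 0.24 and an interval from -0.36 to 0.70, and it was -0.032 without C57B/L6 replicate 1. Lyz2 encodes the bactericidal lysozyme M of monocytes and neutrophils. It read 4639, 5618 and 5205 in C57B/L6 and 6801, 5199 and 10182 in B.D(Chr5). Replicates 1 and 3 of B.D(Chr5) lay above all C57B/L6 arrays and replicate 2 lay among them. This gave a log2 difference of 0.47 with an SE of 0.20 and an interval from 0.020 to 0.92 (limma adjusted p = 1.00). Dropping B.D(Chr5) replicate 3 gave 0.21, and dropping replicate 2 of that strain gave 0.69.

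The brightest probe set named for Lyz1, a lysozyme gene of intestinal Paneth cells next to Lyz2, had a log2 difference of 0.41 (SE 0.13; limma adjusted p = 0.795). Over the 6 arrays it followed Lyz2 (Pearson's r = 0.98, exact permutation p = 0.00556, adjusted over 11 relations 0.0306; Spearman's rho = 0.83, exact permutation p = 0.0583, adjusted 0.321), with r = 0.76 when B.D(Chr5) replicates 1 and 3, the arrays farthest from the median of Lyz2, were left out. The name of that probe set ends in _x_at, the maker's mark for probes that may read related transcripts, so its signal cannot be assigned to Lyz1. The Lyz1 probe set without that mark was dim, at 39.9 ± 11.1 on the C57B/L6 arrays and 28.8 ± 13.2 on those of B.D(Chr5) (SD over n = 3 arrays), and was not tested.

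F13a1 encodes the A subunit of coagulation factor XIII, which monocytes and their marrow precursors make. It read 7401, 7266 and 7442 in C57B/L6 and 10540.1, 7514 and 10088 in B.D(Chr5). All 3 B.D(Chr5) arrays lay above all 3 C57B/L6 arrays, the lowest only just. F13a1 was the 1 member of the 10 with higher values that did not overlap, and Fcgr1 the 1 with lower values, against 9.94% of tested genes in either direction and 4.26% in the higher direction. The strains differed on the log2 scale by 0.33 with an SE of 0.12 and an interval from 0.070 to 0.59 (limma adjusted p = 0.905). Of the 6 fits that each drop an array, 1 called F13a1: that without B.D(Chr5) replicate 2, in which the log2 difference was 0.48, the SE 0.068 and limma's adjusted p 0.0276. In that fit 0.41% of tested genes were called, and 6 of the 10 genes had an unadjusted p under 0.05, all higher in B.D(Chr5), against 7.76% of tested genes. The number of the 10 genes at that p fell to 0 without C57B/L6 replicate 2, B.D(Chr5) replicate 1 or B.D(Chr5) replicate 3. It was 1 without C57B/L6 replicate 1 or 3. The shares of all tested genes in those fits were not computed. The median of the 10 genes moved by more than 1.5 times when any of 4 arrays was left out. It became 0.014 when C57B/L6 lost its replicate 1. When B.D(Chr5) lost its replicate 1, 2 or 3, the median became 0.068, 0.38 or 0.058, in that order.

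**Figure D2:**
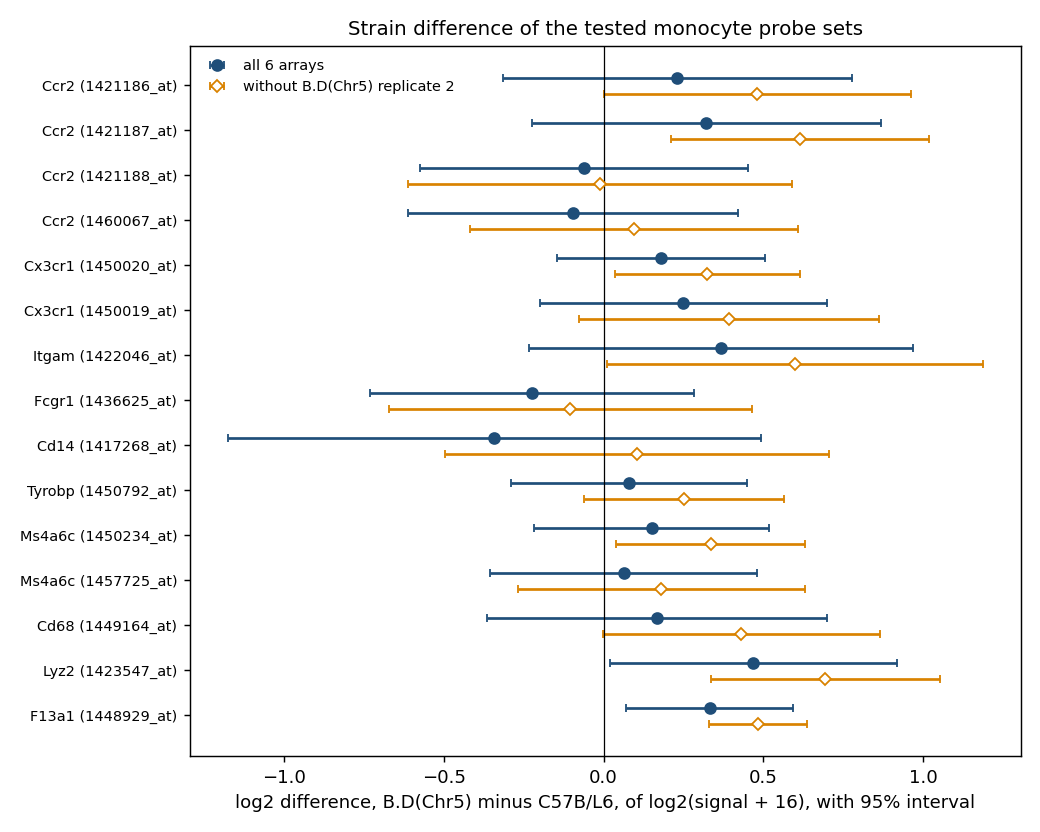
Log2 difference between the strains, with its 95% interval, for the 15 tested probe sets of the 10 genes (vertical), with all 6 arrays (filled circles) and without B.D(Chr5) replicate 2 (open diamonds). With all arrays the intervals of Lyz2 and F13a1 leave out 0, and leaving out that replicate moves every point to the right, Cd14 from -0.34 to 0.10.

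The 10 genes varied together over the arrays. Of the 45 pairs, 44 had a positive Pearson's r on the log2 scale, with a median of 0.76, and 18 (40.0%) had an r over 0.8. Over all 57657691 pairs of tested genes the median r was 0.0057, and 3.89% exceeded 0.8. The closest pair was Tyrobp and Cd68 (r = 0.99, exact permutation p = 0.00139, adjusted over the 45 pairs 0.0156; rho = 1.00, exact permutation p = 0.00278, adjusted 0.0179). That r remained 0.92 without C57B/L6 replicate 1 and B.D(Chr5) replicate 2, the 2 arrays farthest from the median of Cd68. In all, 4 pairs had an adjusted p of r under 0.05, namely those of Itgam with Lyz2, Cd68 and Tyrobp, and Tyrobp with Cd68. The smallest p that 6 arrays gave was 0.00139, and 18 pairs had an unadjusted p under 0.05.

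The likeness was uneven among the genes. Ccr2, Cx3cr1, Cd68 and Tyrobp had a median r with the other 9 genes between 0.82 and 0.88, Ms4a6c and Itgam 0.79, Lyz2 0.75, F13a1 0.67 and Cd14 0.63. Fcgr1 had 0.24, and its r with F13a1 was -0.024, the 1 negative value. Without the 2 arrays farthest from the median of the first gene of each pair, the median r over the pairs was 0.57. Of the 18 pairs with r over 0.8 on all arrays 5 kept such an r, and 2 others then exceeded it, so much of the likeness rests on the extreme arrays. With values taken as deviations from the strain means the median r was 0.84, and 26 pairs exceeded 0.8. That measure was not computed over all pairs of tested genes. Taking out the strain means leaves fewer free values, so this r cannot be set against that over all arrays. Genes of 1 array share its hybridisation and scaling, which also enters each r. Of the 12 other lists, 5 had a median r as high or higher: 0.92 for B cell genes, 0.91 for genes of granulocyte-monocyte progenitors and for those of maturing neutrophils, 0.85 for dendritic cell and MHC class II genes, and 0.76 for mast cells, basophils and eosinophils. The median was lower in the others, at 0.67 for the other monocyte genes, 0.57 for the regulators, 0.56 for T and NK cells, 0.51 for the partners, 0.35 for stem and multipotent progenitors, 0.25 for erythroid genes and -0.13 for tissue macrophages.

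**Figure D3:**
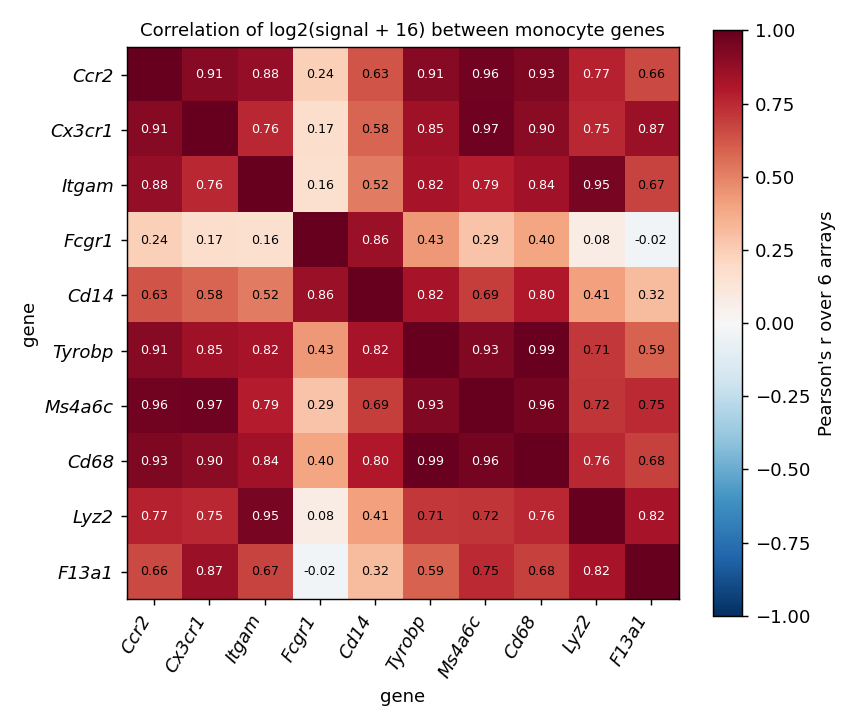
Pearson's r over the 6 arrays between the log2(signal + 16) values of each pair of the 10 genes (both axes), coloured from -1 to 1. Values run from -0.024 for Fcgr1 with F13a1 to 0.99 for Cd68 with Tyrobp, and the row of Fcgr1 is the palest.

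The shared pattern was a low level in C57B/L6 replicate 1 and B.D(Chr5) replicate 2. The mean of the standardized log2 values of the 10 genes was -0.89, 0.12 and 0.14 on the C57B/L6 arrays and 0.68, -1.08 and 1.04 on the B.D(Chr5) arrays. For 8 of the 10 genes these arrays were the lowest of their strain, which held for 18.1% of tested genes. The exceptions were F13a1, lowest in C57B/L6 replicate 2, and Fcgr1, lowest in C57B/L6 replicate 3. These arrays were singled out after their values were seen. The spread that resulted was wide: the median SD of log2 values within strains was 0.32 for the 10 genes and 0.15 for all tested genes, and all 10 genes exceeded the latter.

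The arrays low in monocyte genes were those with the highest 18S signal of their strain. Over the 6 arrays the r of each gene with the log2 18S signal was negative for all 10 genes, from -0.71 for Cd14 to -0.065 for Lyz2. None of the 10 relations passed an exact permutation test, with adjusted p between 0.542 and 0.910. Spearman's rho lay between -0.71 and -0.14, with adjusted p between 0.345 and 0.803 in the exact permutation test. Without C57B/L6 replicate 2 and B.D(Chr5) replicate 1, the arrays farthest from the median of 18S, r ran from -0.75 for Cd14 to 0.085 for F13a1. The part of ribosomal RNA in the strain differences was not tested. Without the array of highest 18S signal in each strain, limma called 0 of the 10 genes, 2 had an unadjusted p under 0.05, and the median log2 difference was 0.24. The shares of all tested genes in that fit were not computed, so these counts have nothing to be set against.

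By the same measure, 5 other genes followed the mean of the 10 genes most closely among 10729 ranked. They were Man1c1, a mannose-trimming enzyme of the Golgi (r = 0.9998, n = 6 arrays), Lman2l, a cargo lectin of the early secretory pathway, Elmo2, an activator of Rac in engulfment, Csf2ra, the alpha chain of the GM-CSF receptor, and Kif23, a kinesin of cytokinesis. The last 4 had r between 0.991 and 0.993. Csf2ra read 631, 836 and 882 in C57B/L6 and 1019, 637 and 1065 in B.D(Chr5). With 6 arrays and so many genes, high r values are common, and 19 genes followed the mean more closely than Cd68, the closest of the 10 genes themselves.

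Further genes of the monocyte system were read in the same way. As before, limma called 0.158% of all tested genes, 5.19% had an unadjusted p under 0.05 and 46.6% had a positive difference. Of 12 regulators and genes of the CSF1 axis, 10 were tested, 0 were called and 1 had an unadjusted p under 0.05. Their median log2 difference was 0.20, against -0.0085 over all tested genes, with 9 positive. Cebpb, a transcription factor of myeloid maturation, read 1112, 1393 and 1338 in C57B/L6 and 2037, 1355 and 2347 in B.D(Chr5), a log2 difference of 0.54 (SE 0.18; limma adjusted p = 0.871). Cebpa, which commits progenitors to the myeloid fate, had 0.39 with an SE of 0.18. Csf1r, the receptor on which monocytes depend, averaged 7325 ± 1026 and 8045 ± 1543 (SD over n = 3 arrays), a log2 difference of 0.13 (interval from -0.21 to 0.46). Irf8, which directs progenitors to monocytes and away from neutrophils, had 0.041 (interval from -0.25 to 0.33).

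Of 21 ligands, receptor partners and relatives, 13 were tested, 10 had a positive difference, and 0 were called. The median was 0.17, and 2 had an unadjusted p under 0.05: Clec5a and the _x_at probe set named for Lyz1, whose signal cannot be assigned to that gene. Clec5a, a lectin receptor that signals through DAP12, read 169, 173 and 137 in C57B/L6 and 356, 159 and 414 in B.D(Chr5), so that B.D(Chr5) replicate 2 again lay among the C57B/L6 arrays. Fcer1g, the signalling chain shared by Fc receptors, had a log2 difference of -0.17 with an SE of 0.14. The chemokine ligands Ccl2, Ccl7, Ccl12 and Cx3cl1 were too dim to be tested, and Ccl12 was at or below the bacterial controls on all arrays. Of 20 other monocyte genes, 15 were tested, 11 were positive, 0 were called and the median was 0.10. The smallest p was that of Cybb, the catalytic subunit of the phagocyte oxidase, at 1163 ± 245 on the C57B/L6 arrays and 1918 ± 702 on those of B.D(Chr5) (SD over n = 3 arrays), a log2 difference of 0.67 (SE 0.23; limma adjusted p = 0.90). Next came Ctsc, a lysosomal protease that activates granule enzymes, with 0.29. Ly6c1 and Ly6c2, which define classical monocytes, share a probe set that names both and are not given.

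Genes whose lowest arrays were C57B/L6 replicate 1 and B.D(Chr5) replicate 2 were counted in each list, beside the 18.1% among all tested genes. The count was 13 of 15 for the other monocyte genes, 7 of 10 for the regulators and 6 of 13 for the partners. It was 5 of 7 for dendritic cell and MHC class II genes, 6 of 7 for T and NK cell genes and 5 of 6 for B cell genes. It was 0 of 6 for genes of tissue macrophages, 0 of 5 for erythroid genes, 1 of 8 for granulocyte-monocyte progenitors, 1 of 8 for stem and multipotent progenitors, 2 of 7 for mast cells, basophils and eosinophils, and 2 of 10 for maturing neutrophils. The 5 tested erythroid genes summed to 33534 in C57B/L6 replicate 1 and 34502 in B.D(Chr5) replicate 2, and to between 26499 and 28615 on the other 4 arrays. Most of that sum came from Car1, a carbonic anhydrase, and the transcription factor gene Klf1. Car1, Klf1 and Epor were highest of their strain on those arrays, whereas Alas2 and Slc4a1 were highest in C57B/L6 replicate 2 and B.D(Chr5) replicate 3, so the genes of that list did not share a pattern. The summed signal of the 10 monocyte genes was 23901, 29206 and 29368 in C57B/L6 and 35356, 25039 and 39180.1 in B.D(Chr5). The part of the makeup of the cell preparation in these values was not tested.

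**Figure D4:**
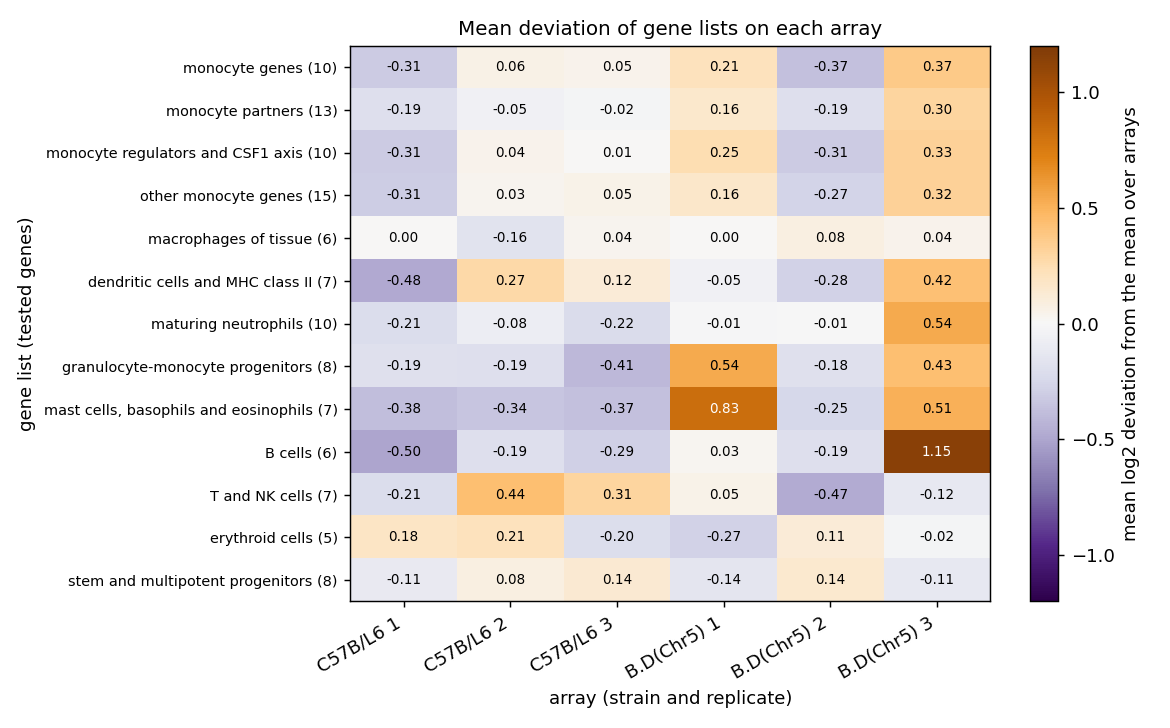
Mean deviation of the log2(signal + 16) values of each gene list (rows, with the number of tested genes) from its mean over the 6 arrays (columns, by strain and replicate). The 10 monocyte genes deviate by -0.31 in C57B/L6 replicate 1 and -0.37 in B.D(Chr5) replicate 2, whereas the erythroid genes deviate by 0.18, 0.21 and -0.20 on the C57B/L6 arrays and by -0.27, 0.11 and -0.022 on the B.D(Chr5) arrays.

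Lists of neighbouring cell types were summed on each array. Over all tested genes limma called 0.158%, 5.19% had an unadjusted p under 0.05 and 46.6% had a positive difference. The 8 genes of granulocyte-monocyte progenitors, the cells from which monocytes come (Nkg7 among them also stands in the T and NK cell list), were all positive with a median of 0.50, and limma called 0 of them, with 5 at an unadjusted p under 0.05. Their sum ranged from 49989 to 58308 in C57B/L6 and from 61042 to 87740.1 in B.D(Chr5). Ctsg and Prtn3, which encode granule proteases of those progenitors, had log2 differences of 0.56 and 0.45. Of 10 tested genes of maturing neutrophils, which also express Lyz2 and Itgam, 9 were positive with a median of 0.38, and limma called 0, with 5 at an unadjusted p under 0.05. In 7 of the 10 all B.D(Chr5) arrays lay above all C57B/L6 arrays, against 4.26% of all tested genes. Their sum ranged from 45131 to 50433 in C57B/L6 and from 54075 to 75075 in B.D(Chr5). Camp and Ngp, secondary granule proteins, had log2 differences of 0.65 and 0.45. On B.D(Chr5) replicate 3, where Lyz2 and Itgam were highest, the neutrophil genes deviated by 0.54 from their mean and the B cell genes by 1.15. The part of these cells in the values of Lyz2 and Itgam was not tested.

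Markers of resident macrophages were mostly dim. Of 14 such genes, 6 were tested, and their sum ranged from 2659 to 3152 in C57B/L6 and from 2410 to 3270 in B.D(Chr5), where the 3 positive and 3 negative differences had a median of 0.088. C1qa, a complement gene of resident macrophages, lay at or below the bacterial controls on all arrays. Adgre1, which encodes F4/80, had a log2 difference of 0.46 and Vcam1 0.30, neither called. The 7 tested dendritic cell and MHC class II genes had a median of 0.11, with 4 positive and 3 negative differences. Their sum ranged from 3274 to 5655 in C57B/L6 and from 3859 to 6624 in B.D(Chr5). Cd74, the invariant chain, had 0.27 and H2-Ab1 0.18, the genes of smallest p. The negative differences were those of H2-Aa (-0.084), H2-Eb1 (-0.079) and Itgax (-0.14). In these 2 lists no gene had an unadjusted p under 0.05 and limma called 0.

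The remaining lists covered other blood lineages and the stem and multipotent progenitors. The 7 genes of mast cells, basophils and eosinophils had a median of 0.96, with 6 positive differences and 1 negative, Gata2 at -0.096. Fcer1a, an IgE receptor chain, had 1.38 and Prg2, an eosinophil granule protein, 0.96. The sum of the 7 genes ranged from 7062 to 7414 in C57B/L6 and from 7300.4 to 15679 in B.D(Chr5). The 6 tested B cell genes had a median of 0.75, with Igll1 and Vpreb1, the genes of smallest p, at 0.83 and 0.82, with sums from 2059 to 2494 and from 2491 to 6285. The 7 genes of T and NK cells had a median of -0.45, with sums from 3449 to 5394 and from 3052 to 4691. Their differences were negative for 5, with Cd3d at -0.80 and Thy1 at -0.64, and positive for 2, Nkg7 at 0.14 and Gzma at 0.042. The 5 erythroid genes had a median of -0.16, with 4 negative and 1 positive, and with Epor at -0.16 and Alas2 at -0.22. In these 4 lists 0 genes were called and 5, 3, 3 and 0, in that order, had an unadjusted p under 0.05. Among all tested genes limma called 0.158%, and 5.19% had an unadjusted p under 0.05. The 8 genes of stem and multipotent progenitors had a median of -0.22, with sums from 13191 to 15501 and from 12011 to 14020. At an unadjusted p under 0.05 there were 2, 1 of them lower in B.D(Chr5), Meis1 at -0.41 with an SE of 0.13. The list had 1 call. That was Slamf1, a receptor of stem cells and the 1 gene of the list with a positive difference, at 1.15 (SE 0.17; limma adjusted p = 0.0361).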

How the data were processed

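The deposited values are MAS5 probe set intensity, linear, 1 array per sample, per the submitters' processing notes; its version is not given in the sources used here. In the values, the mean of every array, trimmed by 2% on both sides, is 500. Controls (64) were left out, and symbols were updated through Entrez identifiers to RefSeq GRCm38.p6 (34741 of 34945 probe sets with 1 symbol matched).

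Intensity was turned into log2(signal + 16), which understates changes of dim probe sets, and the upper 50% of probe sets by mean (22518) were tested with limma 3.58.1 in R 4.3.3 (lmFit, eBayes with trend, two-sided, Benjamini-Hochberg over all tested probe sets, threshold 0.05). A gene is read from its brightest tested probe set. With only 3 arrays for a strain, precision is limited by their number. Correlations used all 720 pairings of 6 arrays, two-sided. The fit was tested on simulated data with known changes in log2. It recovered 17 of 67 changes of 0.5, 41 of 67 changes of 1 and 60 of 66 changes of 2, with 8 false calls. The differences of the 10 genes were all smaller than 0.5, so the lack of a call does not show equal levels.

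The members and lists were chosen with earlier results of these data known. Named were all members, 7 fixed partners and regulators, and the 5 genes most like the members' mean. Of each further list its called genes, or else the 2 of smallest p, were named. Tlr4, Ly96, Ms4a6b, H2-Aa, H2-Eb1, Itgax, Nkg7, Gzma, Gata2 and Meis1 were added after their values were seen. Alternatives: pseudocounts 1 and 64, no filter, quantile normalization, median centring, no trend, the replicate number as a block, the mean over probe sets, no _x_at or _s_at probe sets, and each array left out; leaving out the highest 18S array of each strain, and the alternatives for the correlations, were chosen after seeing the data.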

Additional observations from a re-analysis of the deposited data

How the results depend on the processing

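The count of called monocyte genes in limma was 0 in every alternative, including the replicate block (0), except when B.D(Chr5) replicate 2 was left out: over the fits with an array left out it ranged from 0 to 1. The labels do not say whether the replicate numbers pair the samples. Deviations of same-numbered arrays from their strain means correlated at -0.11, -0.20 and 0.20, and those of differently numbered arrays at -0.16 to 0.30. Deviations from a mean of 3 arrays depend on one another, so these values cannot decide it. The block changed no call. The number of the 10 genes with an unadjusted p under 0.05 was 2 in the main fit, 0 without the trend and 1 with quantile normalization. The median log2 difference of the 10 genes ranged from 0.014 to 0.38 with an array left out and stayed positive in all 16 alternatives. The direction of 7 genes was the same in all 16. Those of the others turned with single arrays: Cd68 ranged from -0.032 to 0.43, Tyrobp from -0.077 to 0.25 and Cd14 from -0.58 to 0.10. The median r over the 45 pairs, 0.76, was 0.68 with arrays centred on their medians, 0.84 with deviations from the strain means, 0.58 without the highest 18S array of each strain, and between 0.71 and 0.82 with an array left out; the cause was not tested. Signals near the bacterial controls limit Cd14 and Fcgr1.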
